A study of Homo sapiens with 3 samples.

Results

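The genes of TGF-beta and BMP signalling were followed in HCT116 cells, a widely used colorectal cancer line, with the deposited counts and FPKM values of 3 RNA-seq libraries. The set of 44 genes was fixed by symbol, and all 44 were found among the 58302 genes of the deposited table, each as 1 protein-coding entry. The compared groups were cells given siRNA 1, cells given siRNA 2 and cells given a control siRNA, each with 1 library, and per the labels the design set cells low in DUOX2 beside a control group. All groups share the HCT116 background and total RNA as the starting material, and neither a dose, nor a time after transfection, nor separate cultures are given in the labels. The siRNA 1 and siRNA 2 libraries were taken as 2 samples of the siRNA group, so p-values cover only the spread of these libraries, whether it comes from the siRNA sequence or from handling. HCT116 is a mismatch-repair-deficient line and is known to carry a frameshift in a coding repeat of TGFBR2, which impairs TGF-beta reception. Counts per gene do not show that allele.

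TGF-beta, activin and BMP ligands are secreted dimers that bring together type II and type I serine/threonine kinase receptors on the cell surface. The type I receptor then phosphorylates receptor SMADs, SMAD2 and SMAD3 for TGF-beta and activin and SMAD1, SMAD5 and SMAD9 for BMPs, which join SMAD4 and act on target genes in the nucleus. In the colon, BMPs restrain stem cell renewal and TGF-beta restrains epithelial growth, and colorectal cancers often lose a receptor or SMAD4.

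The siRNA strands given in the labels define the compared libraries and are shown here for that reason. The guide strands, written 5′ to 3′ without the overhanging bases, carry their seed (bases 2 to 8) in capitals.
siRNA 1: aACCACUAuguuguccucc
siRNA 2: aUGAAGGAucgcaucaugg
control siRNA: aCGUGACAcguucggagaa
The sense strands of siRNA 1 (ggaggacaacauagugguu) and siRNA 2 (ccaugaugcgauccuucau) each matched the transcripts of 1 gene in GENCODE 29, DUOX2 on chromosome 15, and the control sense strand (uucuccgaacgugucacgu) matched 0. None of the 44 genes therefore holds a full match. Seed matches are given below beside the genes that differed between the siRNAs.

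The libraries held 19130768 counts with siRNA 1, 18832672 with siRNA 2 and 17589502 in the control. DUOX2 itself had 2 counts with siRNA 1, 0 with siRNA 2 and 2 in the control, so it lies at or under 3 counts in each library and gives no check of the labels. Of the 8 epithelial markers 7 were well above the limit of detection in each library, and LGALS4 was not, with 0 counts with siRNA 1, 0 with siRNA 2 and 5 in the control. EPCAM was higher than the control with both siRNAs, at 149 and 148 against 102 FPKM. KRT18, KRT19, VIL1 and CDX2 were lower with both, KRT19 at 74.5 and 106 against 219 FPKM (DESeq2 adjusted p = 0.0046, edgeR adjusted p = 0.112), and KRT8 and CDH1 had opposite signs with the siRNAs. With the trend of fold change on transcript GC content removed, log2 fold changes of KRT19 were -0.50 with siRNA 1 and -0.29 with siRNA 2. In the same order KRT18 stood at -0.29 and 0.02, VIL1 at -0.70 and -0.56 and CDX2 at -0.63 and -0.38. The summed level of the list was 480 and 650 against 776 FPKM, and its part in the results below was not tested. Summed over their lists, 6 fibroblast markers had 44, 61 and 66 counts, 4 endothelial markers 5, 9 and 9 and 5 immune markers 51, 53 and 93. At 0 in all 3 libraries were 3 of the 6 fibroblast markers (COL1A2, DCN and LUM) and 3 of the 4 endothelial markers (PECAM1, CDH5 and KDR). Of the 5 immune markers only PTPRC was at 0, and the other 4 passed the filter on low counts used below, as did 1 fibroblast marker. The highest count of a single gene was 57 in the fibroblast, 9 in the endothelial and 56 in the immune list. The protocol in the labels speaks of retinas, and 5 of 6 retina markers were at 0 in all libraries, with 3, 0 and 0 counts for the sixth.

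In the control the levels spanned a wide range, which the plot of FPKM by role shows for every gene and library. Of the 44 genes, 18 had at least 5 FPKM in the control and 15 were under 1 FPKM. FPKM is the count scaled to gene length and to the library total, and is the scale used here to set genes beside each other. BAMBI, a pseudoreceptor that blocks type I receptor signalling, had the highest level, with 39.7 FPKM with siRNA 1, 44.8 with siRNA 2 and 45.8 in the control. TGFB1 and BMP7 followed in the control at 28.3 and 27.2 FPKM, then ID2, a BMP target, at 18.9 FPKM. Scaled to the union of the exons in place of the deposited length, BAMBI stayed first and the order of the next 3 was BMP7, ID2 and TGFB1. At the other end FST, the activin antagonist follistatin, and ENG, an endothelial co-receptor, had 0 counts in every library. BMPR1B, a type I BMP receptor, had 0 counts with siRNA 1, 0 with siRNA 2 and 2 in the control. The limit that a count of 0 allows, taken as 3 counts, is 0.157 CPM (counts relative to the size of the library) with siRNA 1, 0.159 with siRNA 2 and 0.171 in the control, and these 3 genes lie at or under it.

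**Figure D1:**
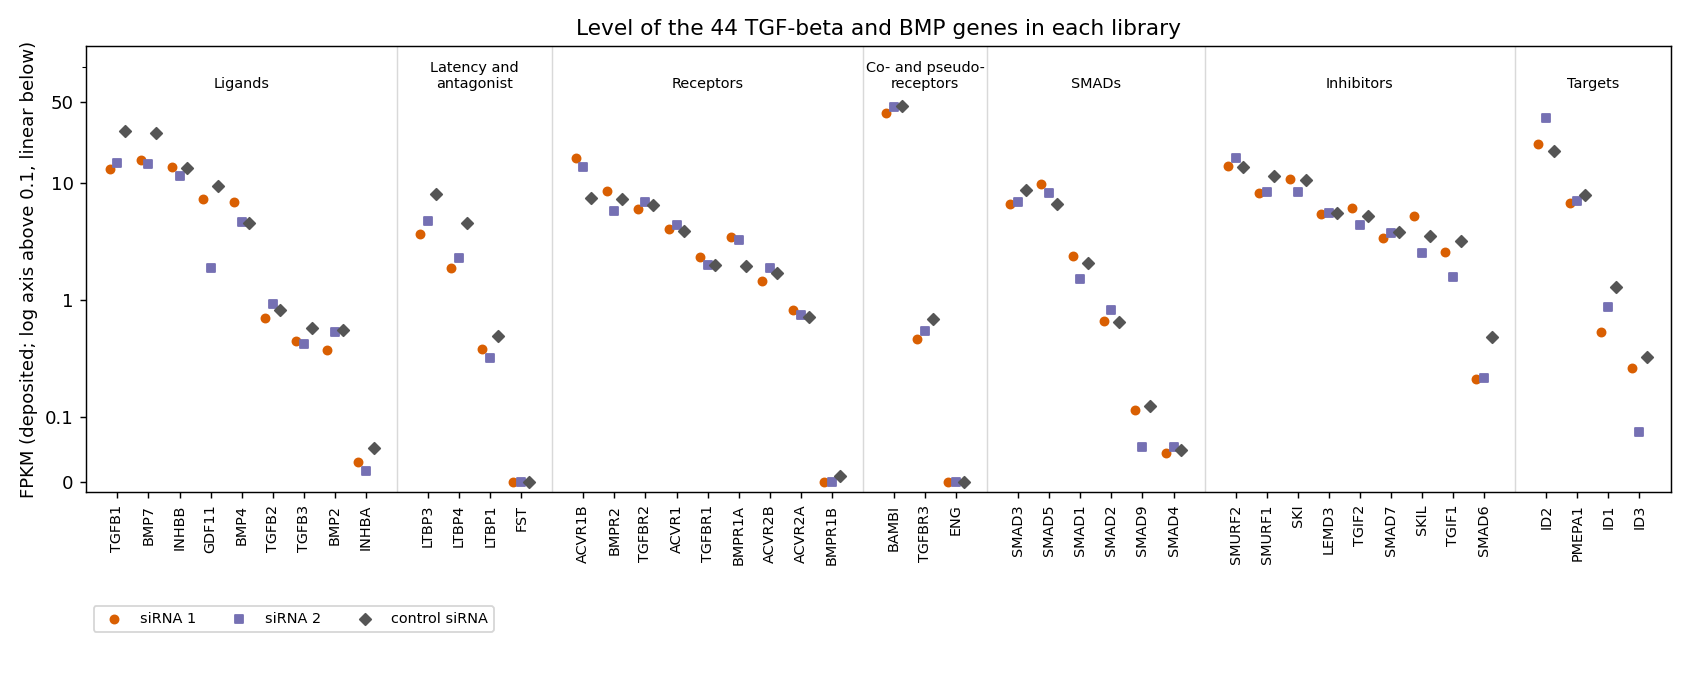
Deposited FPKM (vertical axis, logarithmic above 0.1 and linear below) of the 44 genes, grouped by role and sorted by the control level, with 1 point per library (siRNA 1, siRNA 2, control siRNA). BAMBI stands highest at 39.7 to 45.8 FPKM, and FST and ENG stand at 0 in all 3 libraries.

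The siRNA libraries were set beside the control to ask which genes differ in cells labelled as low in DUOX2. Of the 44 genes, 41 passed the filter on low counts and were tested, and 0 of them passed edgeR's quasi-likelihood test at an adjusted p of 0.05, taken over all 17263 genes tested, of which 0.0579% passed (0.0174% higher and 0.0405% lower). The smallest adjusted p among the members was 0.114. At an unadjusted p under 0.05 there were 7 members, 2 higher (ACVR1B and BMPR1A) and 5 lower (BMP7, SMAD6, TGFB1, LTBP4 and LTBP3), or 17.1% of the members, against 26.0% of all genes tested (11.5% higher and 14.5% lower). DESeq2 on the same counts passed 2 of the 32 members to which it gave an adjusted p, ACVR1B higher and LTBP4 lower, or 6.25%, against 4.66% of all genes (2.19% higher and 2.47% lower). With both siRNAs, and in 1 direction, a 2-fold difference was reached by 1 member, SMAD6, or 2.44%, against 9.05% of all genes (4.0% higher and 5.05% lower). At 1.5-fold it was reached by the 7 members with an unadjusted p under 0.05, again 17.1%, against 26.6% of all genes (11.0% higher and 15.5% lower). Taking each siRNA alone, 1 member was 2-fold higher with siRNA 1 (8.06% of all genes) and 4 were 2-fold lower (12.4%), and with siRNA 2 these were 1 (5.54%) and 4 (7.84%). These shares lie near or below those of the whole table.

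Direction was mixed. With both siRNAs, 13 members were higher than the control (41.9% of all genes were) and 16 were lower (41.6% of all genes were), while 12 had opposite signs with siRNA 1 and siRNA 2, or 29.3%, against 16.4% of all genes. Some of the 12, such as BAMBI and SMAD7, lay close to the control with both siRNAs. With the trend of fold change on GC content removed, 24.4% of members were higher with both and 48.8% lower. Of all genes 37.4% and 35.0% were, which leaves similar shares with opposite signs. Over the 41 members, log2 fold changes had a median of -0.03 for siRNA 1 and -0.20 for siRNA 2, against 0.02 and -0.01 over all genes tested. Both differences use the same control library. The fold change of a single siRNA is its log2 CPM minus that of the control, with TMM scaling and a prior count of 2, and with 1 library on each side they carry no replicate error.

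**Figure D2:**
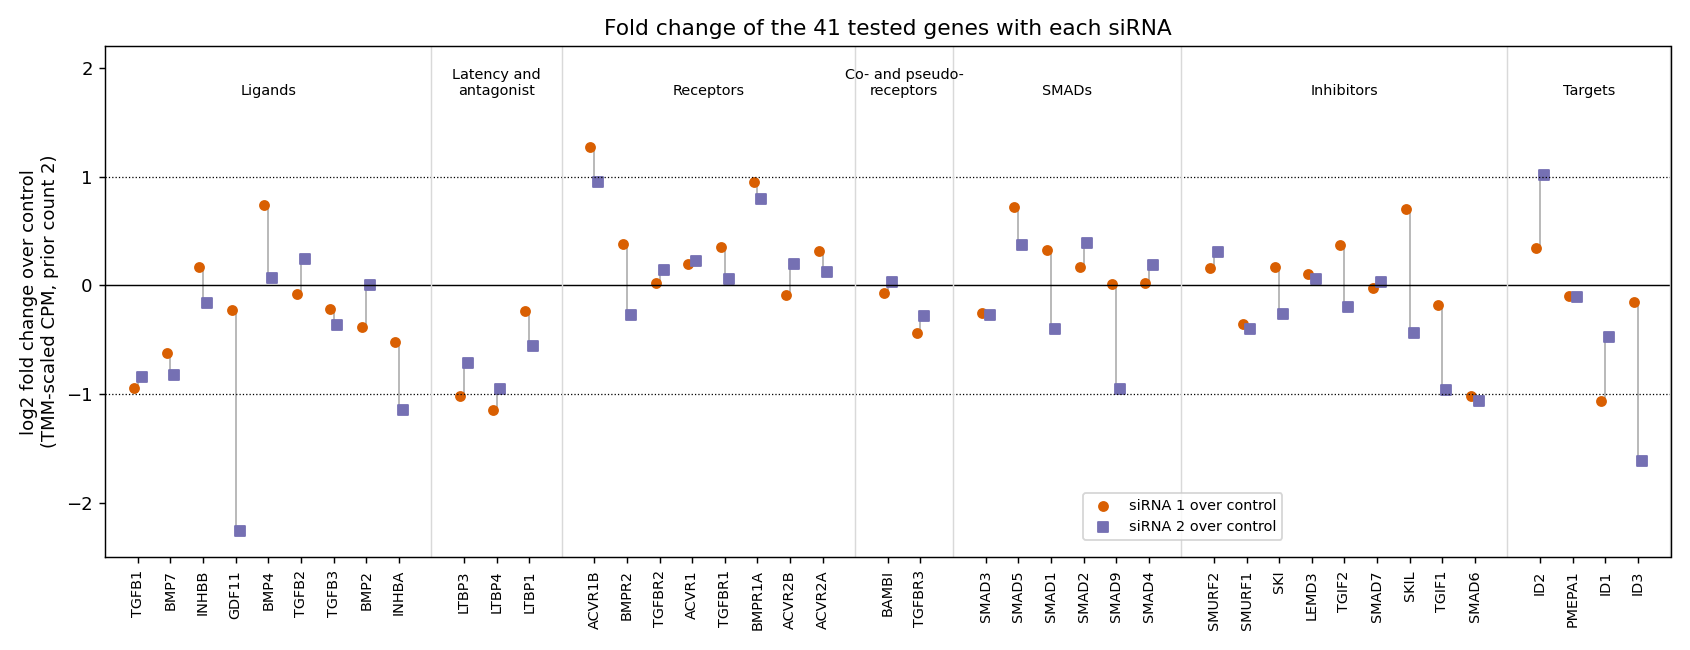
Log2 fold change over the control (vertical axis, TMM-scaled CPM with a prior count of 2) with siRNA 1 and with siRNA 2 for the 41 tested genes, grouped by role and joined by a line per gene. Dotted lines mark 2-fold. SMAD6 lies past 2-fold with both siRNAs, and GDF11 shows the longest line, at -0.23 with siRNA 1 and -2.26 with siRNA 2.

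Among the 9 ligands, 5 (55.6%) were lower than the control with both siRNAs and 1 (11.1%) was higher, against 41.6% and 41.9% of all genes tested. None of the ligands passed the test. TGFB1 (chromosome 19, 41301587 to 41353911, minus strand, GRCh38), the main TGF-beta of epithelial and immune tissue, had 923 counts with siRNA 1 and 1029 with siRNA 2, against 1803 in the control, or 13.3 and 15.1 against 28.3 FPKM. Both siRNA libraries lay below the control, by 1.93-fold and 1.8-fold (edgeR log2 fold change -0.90 ± 0.20 SE, adjusted p = 0.119, DESeq2 adjusted p = 0.0543). With the trend of fold change on GC content removed (63.5% GC) TGFB1 stood at 0.08 with siRNA 1 and -0.07 with siRNA 2 on the log2 scale. The exons of TGFB1 share 6.64% of their bases with HNRNPUL1 on the opposite strand, and the treatment of strand in the counting is not given in the sources used here.

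BMP7 (chromosome 20, 57168748 to 57266629), a BMP that signals through ACVR1 and other type I receptors, had 2552 counts with siRNA 1 and 2319 with siRNA 2, against 3992 in the control. It was lower by 1.54-fold and 1.77-fold (edgeR log2 fold change -0.72 ± 0.19 SE, adjusted p = 0.127). BMP4, which is made in the colon mainly by mesenchyme, had 6.97 FPKM with siRNA 1, 4.63 with siRNA 2 and 4.60 in the control, so that siRNA 1 alone stood apart, 1.67-fold higher. INHBB, the activin B subunit, kept close values at 13.7, 11.6 and 13.5 FPKM in the same order. The other TGF-betas were far lower than TGFB1, with 86, 112 and 92 counts for TGFB2, which shares 26.6% of its exon bases with TGFB2-OT1, and 65, 61 and 77 for TGFB3. BMP2 had 26, 36 and 35 counts and INHBA, the activin A subunit, 7, 4 and 11, where the 95% Poisson interval of the control count, 5.49 to 19.7, takes in the count with siRNA 1.

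GDF11 (chromosome 12, 55743280 to 55757278), a ligand close to myostatin that acts through activin receptors, was the member in which the siRNAs differed most. It had 1341 counts with siRNA 1 and 339 with siRNA 2, against 1589 in the control, or 7.37, 1.89 and 9.49 FPKM. With siRNA 2 it was 4.79-fold lower than the control, while with siRNA 1 it was 1.17-fold lower, and edgeR's test over both gave an adjusted p of 0.439 (log2 fold change -0.91 ± 0.72 SE). Its exons share 4.46% of their bases with SARNP on the opposite strand. The seed site of the siRNA 2 guide, TCCTTCA on the transcript strand, did not occur in the longest GENCODE 29 transcript of GDF11. The seed site of siRNA 1, TAGTGGT, did occur there.

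The latency proteins LTBP1, LTBP3 and LTBP4 bind the TGF-beta propeptide and store it in the matrix. All 3 were lower than the control with both siRNAs under TMM, DESeq2's size factors and total count scaling. Of all genes tested 41.6%, 41.7% and 46.7% were, in the same order. LTBP4 (chromosome 19, 40592883 to 40629818) had 610 counts with siRNA 1 and 726 with siRNA 2, against 1368 in the control, so both siRNA libraries lay near 1 level and below the control. That is 2.21-fold and 1.93-fold lower (edgeR log2 fold change -1.05 ± 0.22 SE, adjusted p = 0.114), and it passed in DESeq2 (adjusted p = 0.0349, log2 fold change -1.05 ± 0.33 SE). LTBP3 (chromosome 11, 65538805 to 65558930), which is needed for secretion of TGF-beta, had 1200 and 1543 counts against 2461, or 2.02-fold and 1.64-fold lower (edgeR log2 fold change -0.86 ± 0.22 SE, adjusted p = 0.126, DESeq2 adjusted p = 0.0748). LTBP1 was the least abundant of the 3, with 100 counts with siRNA 1, 83 with siRNA 2 and 120 in the control (log2 fold change -0.40 ± 0.34 SE). LTBP3 and LTBP4 have the most GC-rich transcripts of all 44 genes, at 67.8% and 66.7% GC, and with the trend of fold change on GC content removed LTBP4 stood at 0.09 with siRNA 1 and -0.01 with siRNA 2 and LTBP3 at 0.30 and 0.28 on the log2 scale.

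Among the 9 receptors, 8 were tested and none passed edgeR's test. With both siRNAs 6 (75%) were higher than the control and 0 lower, against 41.9% and 41.6% of all genes tested. The median GC content of the 8 was 42.6%, and of all tested genes under 45% GC 75% were higher with both and 8.0% lower. The count higher with both was 4 under total count scaling (36.3% of all genes were). With the GC trend removed 2 were higher with both and 3 lower, against 37.4% and 35.0% of all genes. ACVR1B (chromosome 12, 51951667 to 51997078), the type I receptor ALK4 for activin and GDF11, had 2484 counts with siRNA 1 and 2070 with siRNA 2, against 1043 in the control, or 16.4 and 13.9 against 7.50 FPKM. Both siRNA libraries were well above the control, 2.41-fold and 1.93-fold (edgeR log2 fold change 1.12 ± 0.24 SE, adjusted p = 0.114), and the gene passed in DESeq2 (adjusted p = 0.0127). Its exons overlap no other gene. It was also the tested member with the highest mean fold change, and without the GC trend it stood further up, at 1.52 with siRNA 1 and 1.14 with siRNA 2 on the log2 scale.

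BMPR1A (chromosome 10, 86756601 to 86932838), the type I BMP receptor whose germline loss causes juvenile polyposis, had 1084 counts with siRNA 1 and 1008 with siRNA 2, against 567 in the control. It was 1.93-fold and 1.73-fold higher (edgeR log2 fold change 0.88 ± 0.23 SE, adjusted p = 0.127, DESeq2 adjusted p = 0.0957), and with the GC trend removed it stood at 0.49 and 0.44. BMPR1A also has processed pseudogenes, between which reads could have been split. The other BMP type I receptor in HCT116, ACVR1 or ALK2, was close to the control, at 513 and 544 counts against 453.

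The TGF-beta receptors proper showed small differences. TGFBR1, the type I receptor, had 814 counts with siRNA 1 and 689 with siRNA 2, against 644 in the control, and TGFBR2, the type II receptor that binds ligand first, had 895 and 1010 against 893. Their log2 fold changes were 0.22 ± 0.25 SE (edgeR adjusted p = 0.594) and 0.08 ± 0.22 SE (edgeR adjusted p = 0.830), and both signs depended on the processing. With the GC trend removed TGFBR1 stood at -0.25 and TGFBR2 at -0.02, and TGFBR2 was also below 0 under total count scaling and with limma on FPKM. Per length, TGFBR2 at 6.0, 6.88 and 6.51 FPKM was higher in each library than TGFBR1 at 2.35, 2.02 and 2.03 FPKM.

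Of the type II receptors for BMPs and activins, BMPR2 was the most abundant and differed in sign between the siRNAs, with 2150 counts with siRNA 1, 1420 with siRNA 2 and 1675 in the control. ACVR2B had 469, 593 and 505 counts and ACVR2A, whose coding repeat is often mutated in mismatch-repair-deficient colon cancers, 206, 187 and 167, and ACVR2A shares 6.35% of its exon bases with ORC4 on the opposite strand. TGFBR3, the co-receptor betaglycan, was lower at 163 and 190 counts against 225 (log2 fold change -0.36 ± 0.27 SE, edgeR adjusted p = 0.419). BAMBI stayed at 2857 and 3174 counts against 3031, with log2 fold changes of -0.07 with siRNA 1 and 0.03 with siRNA 2.

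**Figure D3:**
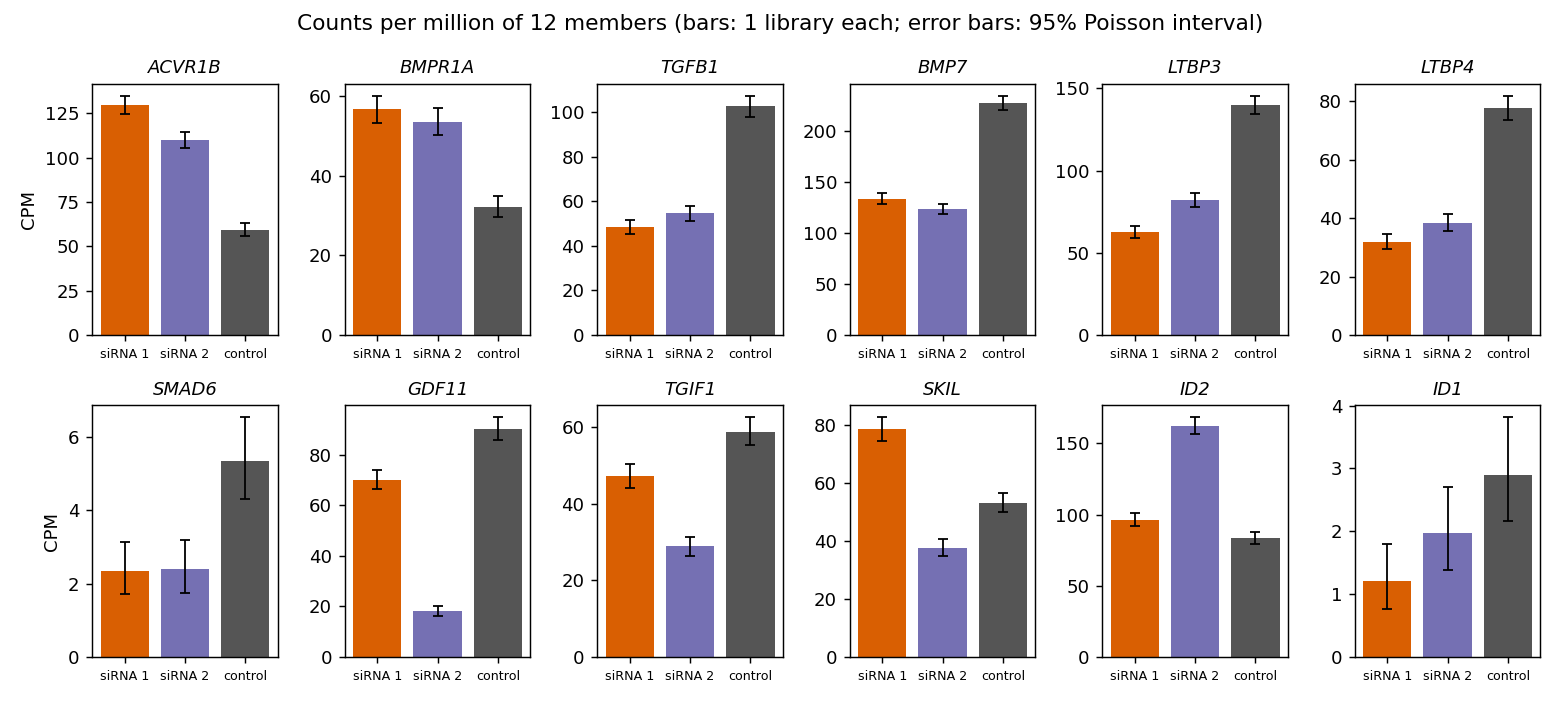
CPM (vertical axes, from 0, scaled per gene) of 12 genes in the siRNA 1, siRNA 2 and control libraries, with exact 95% Poisson intervals that cover counting error only. ACVR1B stands at 130 and 110 CPM with the siRNAs and 59.3 in the control, and GDF11 at 18.0 CPM with siRNA 2 against 70.1 with siRNA 1 and 90.3 in the control.

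None of the 6 SMADs that carry the signal passed the test, and their directions were mixed. SMAD3 had 1677 counts with siRNA 1 and 1721 with siRNA 2, against 2023 in the control (log2 fold change -0.26 ± 0.19 SE, edgeR adjusted p = 0.407), and SMAD2 had 747 and 903 against 672 (0.28 ± 0.24 SE, edgeR adjusted p = 0.461). So the siRNA libraries lay below the control for SMAD3 and above it for SMAD2, and with the GC trend removed SMAD2 stood at -0.30 with siRNA 1 and 0.02 with siRNA 2. SMAD5 (chromosome 5, 136132845 to 136188747), a BMP SMAD, had the highest fold change of the group, with 3178 and 2599 counts against 1957, or 1.64-fold and 1.29-fold higher (edgeR log2 fold change 0.56 ± 0.23 SE, adjusted p = 0.199). With the GC trend removed it stood at 0.13 and -0.09. SMAD1 had 510 counts with siRNA 1, 319 with siRNA 2 and 411 in the control, 1.26-fold higher with siRNA 1 and 1.32-fold lower with siRNA 2, and SMAD9 had 15, 7 and 15.

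SMAD4 (chromosome 18, 51028394 to 51085045), the SMAD shared by both branches, was listed with few reads in all 3 libraries, at 22 counts with siRNA 1 (95% Poisson interval 13.8 to 33.3), 26 with siRNA 2 (17 to 38.1) and 22 in the control (13.8 to 33.3). That is 0.05 FPKM in each library, which ranks it 41 of 44 in the control by FPKM and 40 when the count is scaled to the union of its exons. Of 3 genes nearby on chromosome 18, ELAC1, the closest of them, had 85 counts with siRNA 1, 69 with siRNA 2 and 66 in the control. ME2, beyond ELAC1, had 1326, 1182 and 797 in the same order, and MEX3C, on the other side of SMAD4, had 1129, 1161 and 858. The gene AC091551.1, which overlaps SMAD4 over 7.37% of its exon bases on the same strand, had 0, 9 and 10 counts. Why the count of SMAD4 is this low was not tested, and a difference between the groups was not detectable at this depth. The counting program is not given in the sources used here, and the low count is not read as loss of SMAD4 in these cells.

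The inhibitors of the pathway split by member. SMAD6 (chromosome 15, 66702228 to 66782848), the inhibitory SMAD of the BMP branch and a BMP target itself, had 45 counts with siRNA 1 (95% Poisson interval 32.8 to 60.2) and 45 with siRNA 2 (32.8 to 60.2), against 94 in the control (76.0 to 115). It was 2.02-fold and 2.10-fold lower (edgeR log2 fold change -1.07 ± 0.34 SE, adjusted p = 0.147), and DESeq2 gave it no adjusted p. With the GC trend removed (58.9% GC) it stood at -0.31 and -0.53. SMAD7, its relative that blocks TGF-beta receptors, was close to the control, at 616 and 669 counts against 636.

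The ubiquitin ligases SMURF1 and SMURF2, which mark receptors and SMADs for degradation, stood on opposite sides of the control as measured, and both below it with the GC trend removed. SMURF1 had 1582 counts with siRNA 1 and 1596 with siRNA 2, against 2054 in the control (log2 fold change -0.38 ± 0.19 SE, edgeR adjusted p = 0.261), and shares 11.7% of its exon bases with TRRAP on the opposite strand, so its count is uncertain. SMURF2 had 2495 and 2877 counts against 2270 (0.23 ± 0.20 SE, edgeR adjusted p = 0.471). After removal SMURF1 stood at -0.17 and -0.27 and SMURF2 at -0.35 and -0.09. Among the inhibitors that act in the nucleus, the corepressor SKI had 1361, 1050 and 1229 counts with siRNA 1, with siRNA 2 and in the control. LEMD3, which holds SMADs at the inner nuclear membrane, had 838, 845 and 789 in the same order. TGIF2 had 1185, 830 and 929, while its read-through with RAB5IF, which shares 8.14% of its exon bases, had 98, 120 and 12.

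SKIL and TGIF1 differed between the siRNAs. SKIL, the corepressor SnoN, had 1504 counts with siRNA 1 and 709 with siRNA 2, against 936 in the control, so it was 1.63-fold higher with siRNA 1 and 1.35-fold lower with siRNA 2. TGIF1, a homeobox corepressor of SMAD2, had 901 counts with siRNA 1 and 543 with siRNA 2, against 1035 in the control, or 1.13-fold and 1.95-fold lower. Between the siRNA libraries themselves, 3 members were at least 2-fold apart, GDF11, SKIL and the thinly counted ID3, where 6.56% of all genes tested were. All 3 were higher with siRNA 1 than with siRNA 2, where 3.26% of all genes were at least 2-fold higher and 3.3% lower. The siRNA 2 seed site TCCTTCA occurs in the longest transcripts of SKIL and TGIF1, in 16 of the 44 members (36.4%) and in 31.3% of 16529 protein-coding transcripts. The siRNA 1 seed site TAGTGGT occurs in 13 members (29.5%), among them SKIL, and in 12.3% of protein-coding transcripts, and transcript length was not matched in these shares. The control seed site TGTCACG occurs in 6 members (13.6%) and in 6.67% of protein-coding transcripts, so both of these seed sites were more frequent among the members. Each site was searched on the transcript strand as the 7 bases that pair with guide bases 2 to 8, and a match is a description of the letters, not evidence of pairing in cells.

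The ID genes encode inhibitors of basic helix-loop-helix factors and are direct BMP targets, and in HCT116 ID2 was by far the most abundant of the 3. ID2 (chromosome 2, 8678845 to 8684453) had 1843 counts with siRNA 1 and 3059 with siRNA 2, against 1471 in the control, or 21.7 and 36.6 against 18.9 FPKM. Both siRNA libraries were above the control, by 1.27-fold with siRNA 1 and 2.02-fold with siRNA 2 (log2 fold change 0.72 ± 0.32 SE, edgeR adjusted p = 0.218). ID1 had 23 counts with siRNA 1 (95% Poisson interval 14.6 to 34.5) and 37 with siRNA 2 (26.1 to 51.0), against 51 in the control (38.0 to 67.1), which is below the control with siRNA 1, while the intervals of siRNA 2 and the control overlap. ID3 had 14, 4 and 16 counts. PMEPA1, a TGF-beta target that feeds back on SMAD2 and SMAD3, was close to the control, with 1486 and 1537 counts against 1614 (log2 fold change -0.11 ± 0.20 SE, edgeR adjusted p = 0.756). As measured, ID1, ID2 and ID3 did not share a direction, with log2 fold changes of -1.07 and -0.48 for ID1, 0.34 and 1.02 for ID2 and -0.15 and -1.61 for ID3. With the GC trend removed these were -0.39 and 0.04 for ID1, 0.63 and 1.23 for ID2 and 0.42 and -1.17 for ID3. ID1 and ID3 are thinly counted (edgeR adjusted p = 0.298 and 0.538), so their directions are not settled.

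Fold changes moved with the GC content of the transcripts, as they did over the whole table. The GC content used is that of a gene's longest transcript in GENCODE 29. Across the 41 tested members, GC content and log2 fold change had a Pearson's r of -0.56 for siRNA 1 and -0.27 for siRNA 2 (Spearman's rho -0.49 and -0.32), against -0.60 and -0.53 (Spearman's rho -0.68 and -0.64) across 17209 genes. These are descriptions across genes that share the same 3 libraries. The 10 tested members of at least 55% GC had medians of -0.79 with siRNA 1 and -0.77 with siRNA 2 on the log2 scale, and 7 of them (70%) were lower with both siRNAs and 0 higher. All tested genes in that range had medians of -0.78 and -0.59, with 86.1% lower with both and 5.99% higher. In the 17 members under 45% GC the medians were 0.17 and 0.06, with 9 (52.9%) higher with both and 3 (17.6%) lower. All tested genes in that range had medians of 0.47 and 0.36, with 75% higher with both and 8.0% lower.

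**Figure D4:**
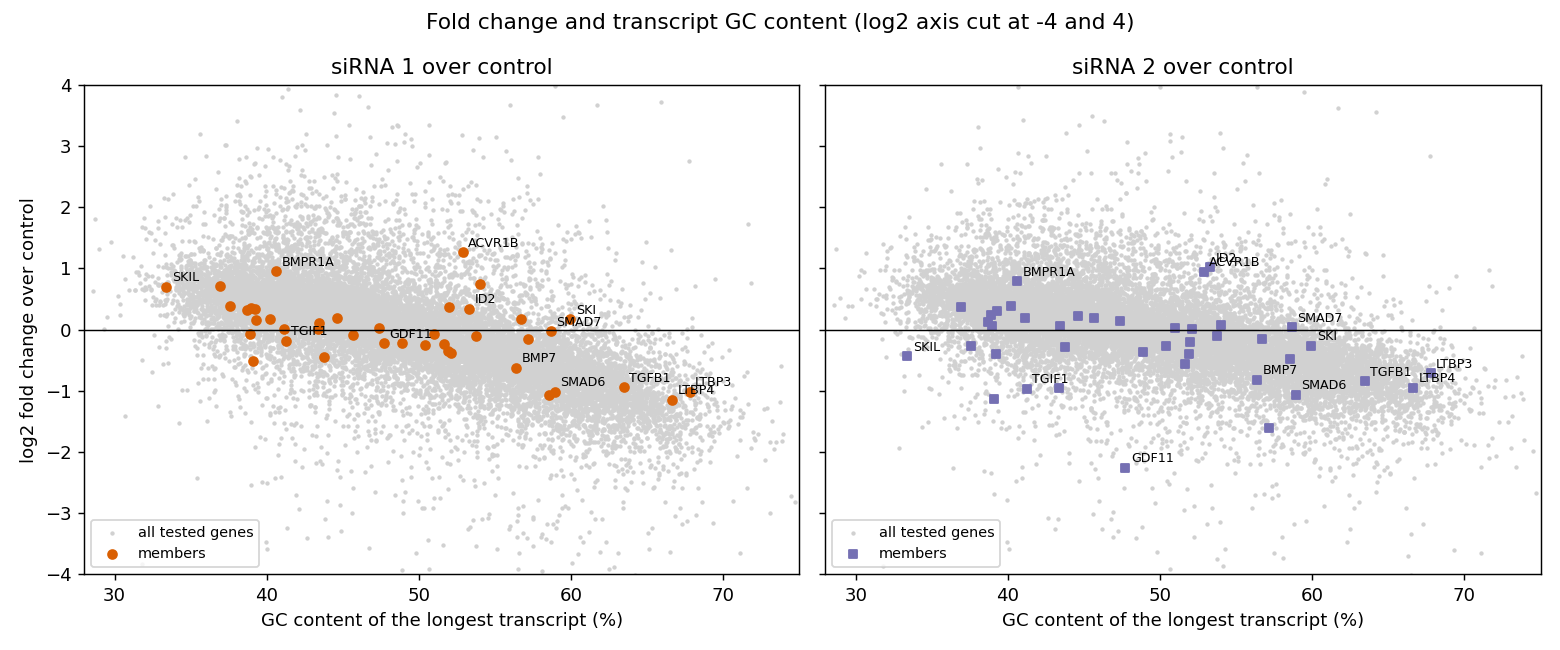
Log2 fold change over the control (vertical axis, drawn from -4 to 4) against the GC content of the longest transcript in percent, for siRNA 1 (left) and siRNA 2 (right), with all tested genes in grey and the 41 members in colour. TGFB1, LTBP3 and LTBP4, at 63.5% to 67.8% GC, and ACVR1B, at 52.9% GC, all lie within the grey cloud, ACVR1B in its upper part.

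With the GC trend over all genes subtracted, the members that lay furthest from the control were partly others. TGFB1 moved to 0.08 with siRNA 1 and -0.07 with siRNA 2, LTBP4 to 0.09 and -0.01, and BMP7 to -0.11 and -0.43. ACVR1B, at 1.52 and 1.14, was the member past 2-fold on the higher side with both siRNAs, where 3.34% of all genes were, and the low-count INHBA, at -1.03 and -1.54, was the member on the lower side, where 1.40% of all genes were. At 1.5-fold ID2 joined on the higher side, at 0.63 and 1.23 (7.39% of all genes), and TGIF1 on the lower side, at -0.62 and -1.30 (4.53% of all genes). SMAD7 and SKI, both GC-rich inhibitors near the control as measured, moved to 0.66 and 0.56 and to 0.95 and 0.33. In edgeR with the GC trend of each library as an offset, 0 members and 0 of all genes passed, and ACVR1B had an adjusted p of 0.317. With the trend subtracted from each log2 fold change, the median over the members was -0.16 with siRNA 1 and -0.09 with siRNA 2, against 0.01 and 0.01 over all genes tested. Of the members 10 (24.4%) were higher with both siRNAs and 20 (48.8%) lower, against 37.4% and 35.0% of all genes.

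**Figure D5:**
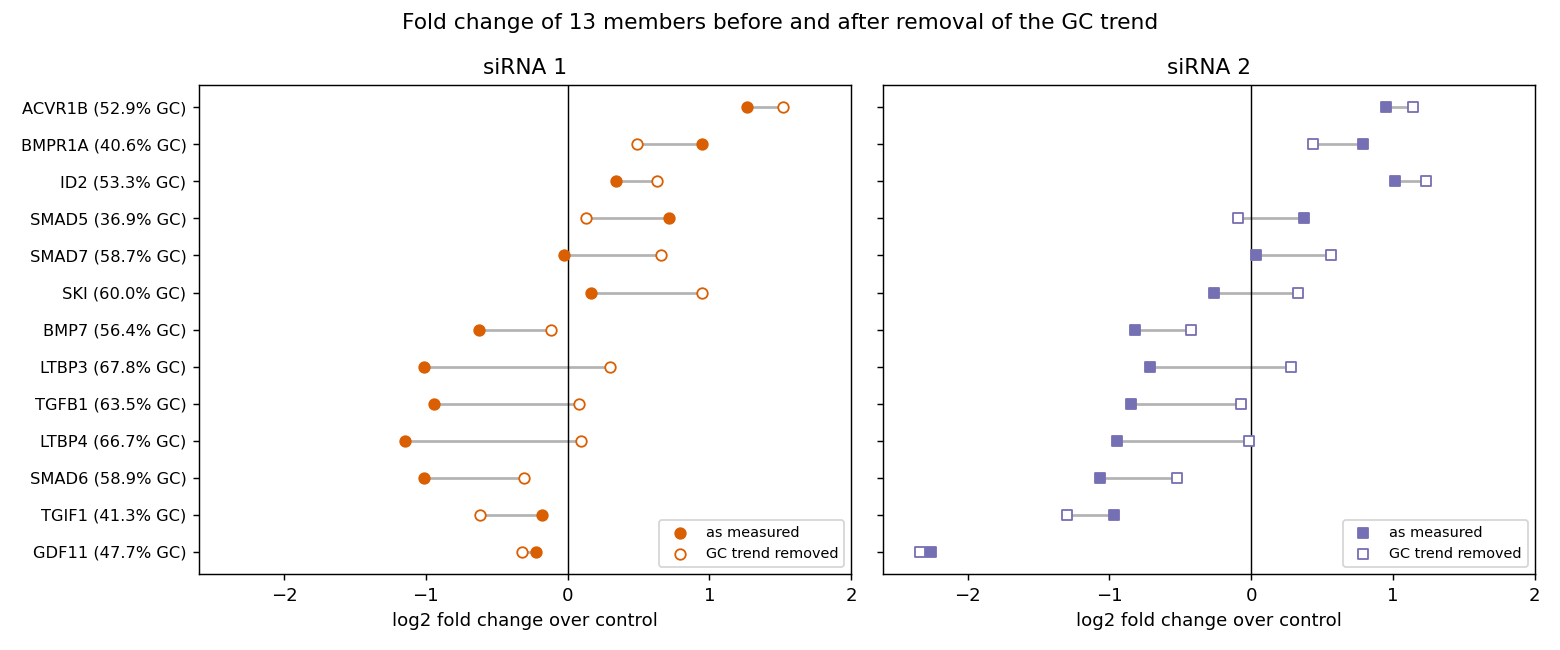
Log2 fold change over the control (horizontal axis) of 13 members, picked with their values known, with siRNA 1 (left) and siRNA 2 (right), as measured (filled) and with the GC trend over all genes removed (open); GC content is given beside each name. LTBP4 moves from -1.14 to 0.09 with siRNA 1 when the trend is removed, while ACVR1B stays on the higher side, at 1.27 as measured and 1.52 after removal.

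The promoters of ACVR1B, the member with the highest mean fold change, and of TGFB1, LTBP3 and LTBP4, which lay below the control together as measured but not with the GC trend removed, are shown because SMADs bind such regions directly. These promoters were picked by the fold changes of their genes, and SMAD binding to them was not tested. They are RefSeq sequences on GRCh38.p14 from 250 bases before to 50 after a transcript start, the first listed start where there were several, written 5′ to 3′ on the gene's strand. Capitals mark CAGAC on either strand, the core of the SMAD-binding element, or GGCGCC, a GC-rich SMAD motif that reads alike on both strands. The motifs share no match.
ACVR1B, chr12:51951449-51951748, plus strand: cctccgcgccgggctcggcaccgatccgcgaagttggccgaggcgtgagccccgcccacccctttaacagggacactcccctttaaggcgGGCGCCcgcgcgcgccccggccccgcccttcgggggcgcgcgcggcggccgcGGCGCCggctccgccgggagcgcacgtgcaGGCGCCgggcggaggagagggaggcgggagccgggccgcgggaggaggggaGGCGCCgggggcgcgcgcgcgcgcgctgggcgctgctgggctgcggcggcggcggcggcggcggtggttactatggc
TGFB1, chr19:41353873-41354172, minus strand: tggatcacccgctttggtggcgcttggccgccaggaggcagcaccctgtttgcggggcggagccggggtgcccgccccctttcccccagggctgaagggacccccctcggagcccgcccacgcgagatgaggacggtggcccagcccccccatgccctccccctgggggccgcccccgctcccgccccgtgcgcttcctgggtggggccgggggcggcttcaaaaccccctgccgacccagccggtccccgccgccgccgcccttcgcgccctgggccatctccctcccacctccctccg
LTBP3, chr11:65558310-65558609, minus strand: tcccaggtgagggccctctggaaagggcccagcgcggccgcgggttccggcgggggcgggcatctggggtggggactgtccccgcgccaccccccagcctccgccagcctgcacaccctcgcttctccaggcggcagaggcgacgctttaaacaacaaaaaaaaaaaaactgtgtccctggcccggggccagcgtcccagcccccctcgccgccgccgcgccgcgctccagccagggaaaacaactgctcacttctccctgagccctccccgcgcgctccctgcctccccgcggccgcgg
LTBP4, chr19:40592916-40593215, plus strand: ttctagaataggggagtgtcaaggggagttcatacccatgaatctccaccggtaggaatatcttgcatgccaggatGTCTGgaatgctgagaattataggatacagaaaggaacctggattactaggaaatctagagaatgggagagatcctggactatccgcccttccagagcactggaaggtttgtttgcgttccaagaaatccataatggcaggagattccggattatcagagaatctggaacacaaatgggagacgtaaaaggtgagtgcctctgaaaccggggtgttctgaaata
GGCGCC occurred 4 times in the ACVR1B window and 0 times in the other 3, and CAGAC occurred 1 time, in LTBP4. Among all 35116 promoter windows 45.3% held CAGAC and 19.2% held GGCGCC, against 41 and 20 of the 82 windows found for 41 of the 44 genes. A match is a description of the letters in the window, not a binding site. The ACVR1B window had 82.3% GC, the TGFB1 window 77.3%, the LTBP3 window 72.0% and the LTBP4 window 45.7%, against a median of 58.7% over all windows and 63.7% over the member windows, so that the LTBP4 promoter start shown is not GC-rich although its transcript is.

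Outside the 44 genes, 94 other genes of the pathway from a wider list were in the table and 66 were tested, and 0 passed edgeR's test over all genes (0.0579% of all genes did). At an unadjusted p under 0.05, 17 (25.8%) were lower and 4 (6.06%) higher, against 14.5% and 11.5% of all genes. DESeq2 passed 5 of the 50 to which it gave an adjusted p, against 4.66% of all genes, all 5 lower (NBL1, FURIN, CTDSP1, JUNB and MSX1). At least 2-fold with both siRNAs, 0 were higher and 7 lower, or 10.6%, where 5.05% of all genes were lower. The median log2 fold change of the 66 was -0.26, and -0.11 with the GC trend removed. The list was chosen with earlier results of these data known, and these shares are not matched for GC content. The 5 genes past DESeq2 have transcripts of 59.9% to 65.2% GC. Of all tested genes of at least 55% GC, 86.1% were lower with both siRNAs. NBL1 stood at 0.08 with siRNA 1 and -0.27 with siRNA 2 after removal of the trend. FURIN, the protease that cuts the TGF-beta propeptide, had 1962 counts with siRNA 1 and 1439 with siRNA 2, against 4085 in the control, and moved from -1.04 and -1.54 to -0.14 and -0.86 when the trend was removed. TDGF1, the nodal co-receptor Cripto, had 6 and 1 counts against 54, and stood at -3.11 and -4.48 after removal. It has near-identical processed copies, so its count is uncertain. CTDSP1, a phosphatase that acts on SMAD linkers, had 636 and 585 against 1539, at -0.35 and -0.75 after removal.

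STRAP, which holds SMAD7 at the receptor, was the member of the wider list furthest up by the smaller of its fold changes, with 5919 and 6718 counts against 3666, with log2 fold changes of 0.71 and 0.84, and of 0.40 and 0.60 once the trend was removed. Among the target genes, MSX1, a BMP-responsive homeobox gene, had 2042 and 2236 counts against 3749 (59.9% GC, DESeq2 adjusted p = 0.0492), and stood at -0.08 and -0.19 after removal. JUNB, an immediate early gene that TGF-beta can raise, had 202 and 219 counts against 648 (64.9% GC, DESeq2 adjusted p = 0.00469), and stood at -0.53 and -0.75 after removal. CTGF, a TGF-beta target in many cells, had 150 and 163 against 142. TSC22D1 had 4827 and 4881 against 3767. TAB2, an adaptor of the TGF-beta-activated kinase, was lower as measured and further down after removal, with 1581 and 1770 counts against 2453 and values of -1.10 and -0.89, at 39.8% GC. Of the 17 targets tested in the wider list, 0 passed edgeR's test and 2, JUNB and MSX1, passed in DESeq2, and at an unadjusted p under 0.05 3 were lower and 0 higher, with a median log2 fold change of -0.29, or -0.14 with the GC trend removed.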

How the data were processed

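Per the labels, total RNA of HCT116 cells was made into TruSeq RNA libraries, with a protocol text that mentions retinas although the samples are a cell line. The submitters' processing notes name Bowtie 0.12.2 and 2 builds, GRCh38 and mm8, without roles. The counting program, and whether it used strand, is not given in the sources used here. Raw read counts and FPKM per gene were deposited by the authors. The deposited FPKM divides by the sum of a gene's distinct exons (within 0.1% for 92.2% of 13047 genes), a length with a median of 1.52 times the exon union, so genes with many overlapping exons read low. Deposited coordinates equal those of GENCODE 29 on GRCh38 for 97.6% of shared genes.

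Counts were tested with edgeR 4.0.16 (R 4.3.3): TMM, filterByExpr (minimum count 10), then glmQLFit and glmQLFTest, Benjamini-Hochberg adjustment over 17263 genes, with 1 residual and 4.66 prior degrees of freedom. The single control is assumed to vary like the siRNA libraries. The SE beside an edgeR log2 fold change was derived as its absolute value over the square root of the test's F statistic. It is not a value that edgeR reports. DESeq2 1.42.0, and limma 3.58.1 on log2(FPKM + 1), were alternatives. The GC trend was a lowess fit (fraction 0.3). The edgeR script was run on simulated counts with changes well beyond 2-fold, in genes with at least 50 counts and without a GC trend. That run does not bear on the smaller differences of most members. Poisson intervals (95%) and the limit of 3 counts cover counting error only.

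The members and lists were chosen with earlier results of these data known. Named by rule were members past 2-fold with both siRNAs, those past 2-fold with 1 siRNA but within 0.25 or of opposite sign with the other, the most abundant, highest and lowest of each role (at least 50 counts) and the core genes TGFBR1, TGFBR2, SMAD2, SMAD3, SMAD4, ID1, ID2 and ID3. In the wider list up to 3 highest and 3 lowest per group were eligible. Any other member in the text was picked with its values in view.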

Additional observations from a re-analysis of the deposited data

How the results depend on the processing

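No paired analysis was possible because the control has 1 library and no number to share with the siRNA libraries. For the same reason the control could not be left out. The count of all genes past the test was 10, and it was 9 with total count scaling, 539 with DESeq2, 63 at an adjusted p of 0.10, and 0 with no filter, with a floor of 1 CPM in each library, with the GC trend removed and with limma on FPKM at either pseudocount (1 or 0.1). The count of members past the test was 0 in all of these except DESeq2, where it was 2. Members beyond 2-fold with both siRNAs numbered 1, where 9.05% of all genes tested were, and 2 under total count scaling (SMAD6 and LTBP4). Without a filter there were 2, and the added member was BMPR1B, whose 0, 0 and 2 counts lie at or under the limit of 3 counts. With the GC trend removed there were 2, ACVR1B higher and INHBA lower (3.34% and 1.40% of all genes). At 1.5-fold there were 7 (26.6% of all genes). With either siRNA left out the number was 5, with SMAD6 among them in both cases, so that the other 4 differ with the siRNA. Of all genes 8.06% were 2-fold higher and 12.4% lower with siRNA 1, and 5.54% and 7.84% with siRNA 2. The median over members was -0.02, and -0.19 with the GC trend removed. It ran from -0.20 without siRNA 1 to -0.027 without siRNA 2. Total count scaling put the median of all tested genes at -0.12 with siRNA 1 and -0.07 with siRNA 2.

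Signs turned for some of the 21 members named by rule, in 16 cases with both siRNA libraries kept, none of which passed the test in either setting. Beyond these, with siRNA 1 left out BMPR2 moved from 0.088 to -0.28 and BAMBI from -0.018 to 0.028. With the GC trend removed, the edgeR log2 fold change was 0.0044 for TGFB1, -0.25 for TGFBR1, -0.025 for TGFBR2, -0.43 for BMPR2, 0.085 for BAMBI, 0.29 for LTBP3, 0.039 for LTBP4, -0.13 for SMAD2, -0.27 for SMAD4 and -0.22 for SMURF2. With total count scaling it was -0.016 for TGFBR2 and -0.020 for BMPR2. With limma on FPKM it was -0.016 (pseudocount 1) and -0.019 (pseudocount 0.1) for TGFBR2, and -0.040 and -0.048 for BMPR2. The alternatives remove a trend or shift every gene by their construction. No cause beyond that was tested. Scaling by exon union in place of the deposited length, chosen after seeing the data, kept the order of the members in the control close (Spearman's rho 0.97). Depth limits the statements on SMAD4, SMAD6, SMAD9, ID1, ID3, INHBA, BMP2 and TGFB3, each under 100 counts in every library.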
